A study of Mus musculus with 6 samples.

Results

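Interferon-stimulated genes were compared between small intestinal organoids treated with MMK-1 and organoids given vehicle, and nearly all of them were lower with MMK-1. The set was the type I and III interferon-stimulated genes on a list of 39 members, taken by symbol from the deposited table of 21397 genes. Of the 39, 37 were in the table, and Mx1 and Mx2 were not analysed here. Small intestinal organoids are epithelial structures grown in culture from crypts, and these came from Fpr2f/f mice, whose Fpr2 gene carries loxP sites and stays intact without a Cre recombinase. Both groups shared this genotype and were harvested at day 5, and the labels gave neither the age nor the sex of the mice. The 3 control libraries came from organoids given 0.1% DMSO. The 3 MMK-1 libraries came from organoids given MMK-1, a synthetic peptide agonist of the formyl peptide receptor FPR2, at 1 μM by the protocol text and at 1 mM by the treatment field of the labels. Each sample held organoids of 3 mice by the study's legend, and nothing in the labels ties samples to mice, so the p-values measure the spread between these libraries, which may be technical.

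Type I interferons signal through the receptor chains IFNAR1 and IFNAR2, and type III interferons, or interferon lambdas, through IFNLR1 and IL10RB, a receptor found mainly on epithelia such as that of the gut. Both receptors use the kinases JAK1 and TYK2, which lead to the phosphorylation of STAT2, a factor that joins IRF9 in a complex that binds the interferon-stimulated response element in the promoters of target genes. The products of these genes bind or cut viral RNA, sense it, modify proteins, or carry the signal further, and many of them are also held at a low level in epithelium without infection.

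The response element holds the core GAAA, any 2 bases, GAAA. To show which members carry it near their start, RefSeq promoter windows on GRCm38.p6, from 250 bases before to 50 bases after the annotated start, were searched on both strands. Windows were found for 28 of the 37 members and none was matched for the other 9. The core was in a window of 13 of the 28 members (46.4%) and of 1079 of all 27025 genes with a window (3.99%). Below, 30-base stretches are printed for members from across the range of change, up to Bst2, whose transcript was not lower by the test, on the strand on which the core reads 5′ to 3′, with the core in capitals.
Isg15, chr4:156200871-156200900, minus strand: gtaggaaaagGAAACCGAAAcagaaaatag
Ifit3, chr19:34583397-34583426, minus strand: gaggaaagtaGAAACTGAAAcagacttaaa
Ifit1, chr19:34640794-34640823, minus strand: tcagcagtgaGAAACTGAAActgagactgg
Oas3, chr5:120777715-120777744, minus strand: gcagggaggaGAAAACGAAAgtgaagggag
Oas1a, chr5:120907520-120907549, minus strand: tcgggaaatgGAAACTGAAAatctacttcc
Rsad2, chr12:26456553-26456582, plus strand: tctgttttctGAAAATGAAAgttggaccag
Trim30a, chr7:104465210-104465239, plus strand: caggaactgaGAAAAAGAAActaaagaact
Stat2, chr10:128270266-128270295, minus strand: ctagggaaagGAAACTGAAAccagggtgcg
Bst2, chr8:71537577-71537606, minus strand: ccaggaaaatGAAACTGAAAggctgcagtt
The core began 72 bases before the start in Isg15, which holds 3 overlapping matches, 122 in Ifit3, 124 in Bst2 and 222 in Stat2. The Ifit3 stretch reads the same in its paralog Ifit3b, and the Oas1a stretch the same in Oas1g. The remaining members with a match were Eif2ak2 and Ifih1, where it lay after the start. A match describes the letters of the window and is not a measured binding site.

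The libraries were deep and similar. Their totals ran from 35512739 to 37537463 fragments, the 6 libraries separated by group along a first principal component that held 92.4% of the variance, and MMK-1 replicate 3 stood apart from the other two MMK-1 libraries along the second, which held 4.48%. Without that library, 22 of 24 tested members were lower, as were 2960 of all 10515 genes tested. All 6 epithelial markers were well expressed, with sums of 2295 to 2317 FPKM without and 1621 to 1760 FPKM with the agonist. Of these, 3 were lower by the limma test on FPKM (Krt20, Vil1 and Krt8, at ratios of MMK-1 to control of 0.347, 0.433 and 0.813), 2 were higher (Cdh1 and Cdx2, at 1.12 and 1.24), and Epcam, at a ratio of 0.998, did not pass (adjusted p = 0.93). In that test 24.7% of all genes were lower and 48.5% higher. FPKM is the number of sequenced fragments on a gene, divided by the length of the gene and by the total of the library.

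Together the 37 members held 44406 to 45739 fragments per library without MMK-1 but 26308 to 27977 with it, and Ifi27l2b and Lgals3bp made up much of both sums. The median member stood at 3.31, 4.05 and 3.74 FPKM in the control libraries and at 0.852, 0.895 and 1.02 FPKM with MMK-1. Between 9 and 11 of the 37 members were under 1 FPKM in a control library, against 18 or 19 in an MMK-1 library. In 35 of 37 members each control library was above each MMK-1 library, a pattern found in 23% of the 15917 genes with at least 10 fragments over the 6 libraries. In the other two, Oasl1 and Bst2, each MMK-1 library was above each control library in the values as deposited, as in 43.2% of those genes, and the sign of the Bst2 difference turned when libraries were rescaled (upper-quartile scaling, log2 fold change -0.050). With 3 libraries per group the exact two-sided permutation test cannot go below p = 0.1, and it gave that value for every member of the 37.

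In the limma test on log2(FPKM + 1), which was run on the 10551 genes with a mean of at least 1 FPKM, 23 members could be tested and 14 were too low. Among the 23, 21 were lower with MMK-1 (p of at most 0.05 after Benjamini-Hochberg adjustment over all genes tested), as were 24.7% of all genes tested, and 1 was higher, as were 48.5% of all genes. At least a 2-fold fall with an unadjusted p of at most 0.05 was found in 11 members, against 3.65% of all genes tested. Of the 23, 5 had passed the filter only through their control values, namely Ifit1, Ifit3, Isg15, Oasl2 and Parp14, and of the other 18, 16 were lower and 6 at least 2-fold lower. All 37 could be tested on numbers of fragments with limma-voom, because the lowest member had 39 fragments over the 6 libraries. By that test 33 of 37 were lower, with 20.5% of 15917 genes, 1 was higher, with 39%, and 24 were at least 2-fold lower, with 7.2%. Trim30a, Rtp4, Oas3, Oas2 and Zbp1 had under 10 fragments in the MMK-1 libraries together and so entered that test through their controls, and of the other 32, 28 were lower and 19 at least 2-fold lower. The median log2 fold change over the members was -0.92 on the log2(FPKM + 1) scale, beside 0.13 over all genes tested, and -2.01 on the fragment scale, beside 0.17. The first scale understates the change of low genes, because 1 is added to each value. In the account below a fold is the plain ratio of fragments per library total, controls over MMK-1, with a 95% interval that covers counting error only.

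**Figure D1:**
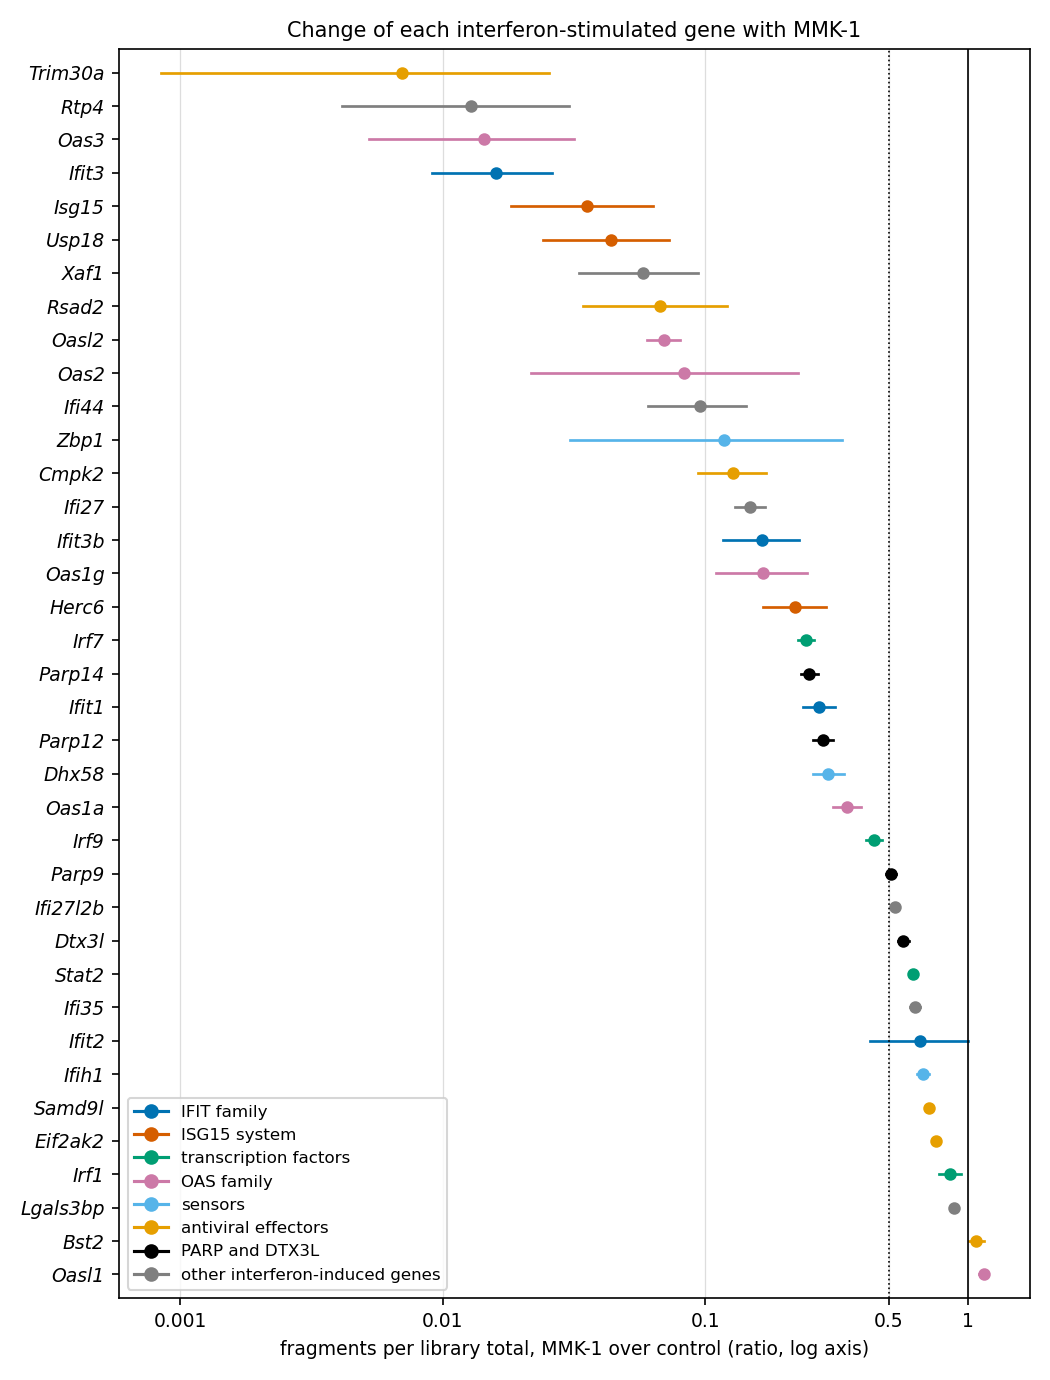
Ratio of fragments per library total, MMK-1 over control, for each of 37 members on a log axis; points are the ratios of the summed libraries, lines their 95% counting intervals, the dotted line marks 0.5 and the solid line 1. The ratios run from 0.00699 for Trim30a to 1.15 for Oasl1, and 35 points lie left of 1; the side on which Bst2 lies turns with the scaling of the libraries.

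The IFIT proteins bind foreign RNA, and their 4 genes lie side by side on chromosome 19, from Ifit2 (34550694 to 34576419) over Ifit3 (34583531 to 34588731) and Ifit3b (34607970 to 34613401) to Ifit1 (34640871 to 34650009), all on the plus strand of GRCm38. Ifit3 was at 3.18, 3.41 and 3.74 FPKM in the control libraries and at 0.0315, 0.0624 and 0.0704 FPKM with MMK-1, where only 3, 6 and 7 fragments remained. This was a 62.6-fold fall (38.3 to 110 by counting), with an adjusted p of 3.0e-07 in limma-voom. Ifit1 was at 3.16, 3.36 and 3.65 FPKM in the controls against 1.07, 0.770 and 0.929 FPKM in the MMK-1 libraries, a 3.68-fold fall (adjusted p = 8.2e-07, limma-voom). These members of 1 cluster started from nearly the same control level and ended far apart. In both, each control library was above each MMK-1 library, as in 23% of genes with at least 10 fragments. Ifit3b had 113, 70 and 87 fragments in the controls against 7, 16 and 20 after MMK-1, a 6.07-fold fall (adjusted p = 1.4e-04, limma-voom). Ifit2 was close to the floor throughout, with 26, 16 and 18 fragments in the controls against 15, 15 and 8 after MMK-1, and the difference did not pass (log2 fold change -0.62, standard error 0.42, adjusted p = 0.22, limma-voom). Ifit3 and Ifit3b are near-identical copies, and how reads shared by such copies were assigned is not given in the sources used here, so the split between them is uncertain.

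ISG15 is a ubiquitin-like protein that is attached to other proteins during the interferon response, HERC6 is the mouse ligase that attaches it, and USP18 removes it and also blocks the type I receptor. All 3 genes were lower in the fragment test, as were 20.5% of all genes in it. Isg15 was at 3.00, 4.65 and 4.67 FPKM in the controls against 0.186, 0.147 and 0.107 FPKM in the MMK-1 libraries, or 85, 132 and 132 fragments against 5, 4 and 3. This was a 28.1-fold fall (15.9 to 54.9 by counting; adjusted p = 1.5e-05, limma-voom). Usp18 had 118, 116 and 122 fragments in the controls against 5, 6 and 4 after MMK-1, a 22.9-fold fall (adjusted p = 1.6e-06, limma-voom). Herc6 had 108, 94 and 104 fragments in the controls against 14, 26 and 25 after MMK-1, a 4.55-fold fall (adjusted p = 3.3e-05, limma-voom). The gene of the modifier and that of its protease thus fell further than that of the ligase by these ratios, whose counting intervals did not overlap with that of Herc6, 3.47 to 6.04.

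Among the transcription factors, Irf7, which amplifies the production of type I interferon, changed most. It was at 21.5, 18.9 and 21.3 FPKM in the controls against 4.50, 5.09 and 5.28 FPKM in the MMK-1 libraries, a 4.14-fold fall (adjusted p = 7.6e-08). Irf9, the DNA-binding part of the complex that reads the response element, was at 8.93, 8.84 and 8.98 FPKM in the controls against 4.09, 3.32 and 4.36 FPKM in the MMK-1 libraries, a 2.27-fold fall (adjusted p = 4.9e-06). Stat2, its partner, was at 13.7, 12.9 and 13.4 FPKM in the controls against 7.65, 7.95 and 9.06 FPKM in the MMK-1 libraries, a 1.62-fold fall (adjusted p = 2.3e-05). Both parts of the complex therefore remained at several FPKM with MMK-1. Each control library was above each MMK-1 library in both, as in 23% of genes with at least 10 fragments. Irf1, a factor most strongly induced by interferon gamma, was at 2.65, 2.91 and 2.52 FPKM in the controls against 2.38, 2.15 and 2.38 FPKM in the MMK-1 libraries. Its log2 fold change of -0.16 (standard error 0.06) passed narrowly (adjusted p = 0.044) and missed the threshold on fragments (adjusted p = 0.074). It missed the threshold when Control replicate 1, Control replicate 2, MMK-1 replicate 1 or MMK-1 replicate 2 was left out (adjusted p = 0.083, 0.16, 0.060 and 0.14), and passed more clearly under upper-quartile scaling (log2 fold change -0.27, adjusted p = 0.0039). Irf9 overlaps Rnf31 and Irf7 overlaps Phrf1 in the GENCODE annotation, and how fragments in the overlap were assigned is not given in the sources used here.

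**Figure D2:**
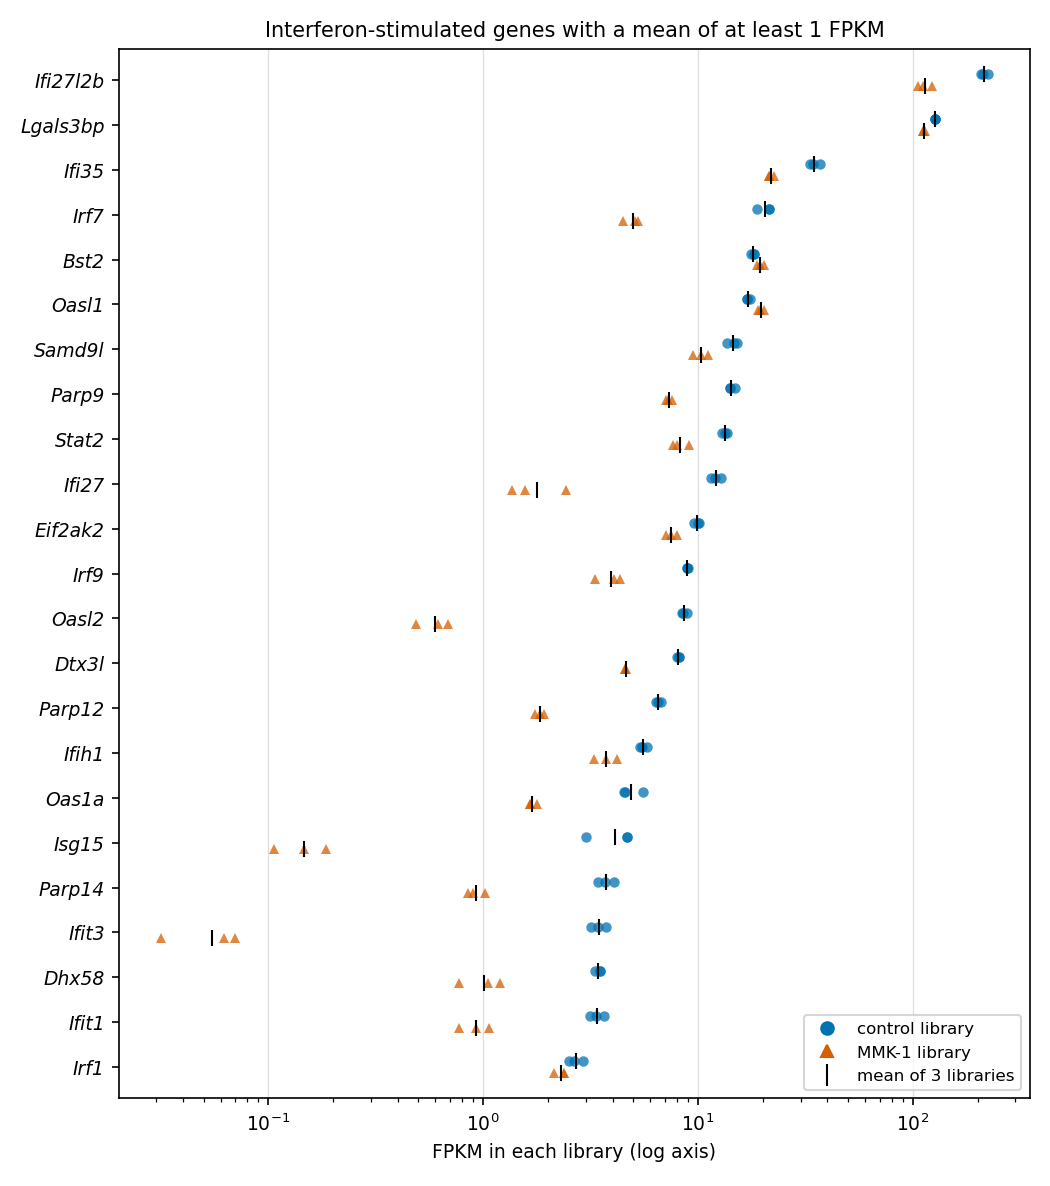
FPKM of the 23 members with a mean of at least 1 FPKM in each of 3 control and 3 MMK-1 libraries, on a log axis, with the mean of each group as a vertical line. Controls lie above MMK-1 in 21 of the genes shown, widely in Ifit3, Isg15, Oasl2 and Ifi27, while Oasl1 and Bst2 lie slightly the other way, Bst2 only without rescaling of the libraries.

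OAS enzymes make the short oligoadenylates that switch on RNase L, which then cuts RNA in the cell. Their genes on chromosome 5 spread widely. Oasl2 was at 8.48, 8.85 and 8.45 FPKM in the controls against 0.485, 0.683 and 0.618 FPKM in the MMK-1 libraries, a 14.4-fold fall (12.5 to 16.7 by counting; adjusted p = 1.8e-09, limma-voom). Oas3 had 148, 151 and 133 fragments in the controls against 3, 1 and 2 after MMK-1, a 69.6-fold fall (31.7 to 191 by counting; adjusted p = 1.6e-06, limma-voom). Its neighbour Oas2 had 22, 19 and 9 fragments in the controls against 2, 2 and 0 after MMK-1, a 12.1-fold fall with a wide interval of 4.43 to 46.1 (adjusted p = 0.0031, limma-voom). Transcripts of Oas3 and Oas2, but not of Oasl2, were thus close to the limit of detection with MMK-1 at these depths. Both Oas3 and Oas2 entered limma-voom through their controls alone, which limits what their p-values can show. Oas1a was at 5.54, 4.52 and 4.59 FPKM in the controls against 1.78, 1.64 and 1.65 FPKM in the MMK-1 libraries, a 2.89-fold fall (adjusted p = 2.1e-06). Oas1g, a near-identical copy whose reads may not be separable from those of Oas1a, had 79, 54 and 60 fragments in the controls against 10, 6 and 15 after MMK-1, a 6.02-fold fall (adjusted p = 1.4e-04, limma-voom). In these 5 genes each control library was above each MMK-1 library, as in 23% of genes with at least 10 fragments, and 1 family member went the other way. Oasl1, which lacks the enzyme activity and in the mouse holds back the translation of Irf7, was at 17.5, 17.0 and 16.8 FPKM in the controls against 19.0, 19.5 and 20.3 FPKM in the MMK-1 libraries. The difference was 0.19 ± 0.04 on the log2 scale (standard error; adjusted p = 0.0039), close to the 0.13 of the median gene, and it no longer passed when libraries were scaled by upper quartile (log2 fold change 0.04, adjusted p = 0.37). Oasl2, at 114896936 to 114912234, and Oasl1, at 114923240 to 114937915, are neighbours on the same strand of chromosome 5.

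Of the sensors, IFIH1, also called MDA5, detects long double-stranded RNA, DHX58, or LGP2, modulates that detection, and ZBP1 binds nucleic acids in the Z form. Dhx58 was at 3.31, 3.48 and 3.51 FPKM in the controls against 0.772, 1.05 and 1.19 FPKM in the MMK-1 libraries, a 3.40-fold fall (adjusted p = 3.4e-06). Ifih1 was at 5.78, 5.36 and 5.48 FPKM in the controls against 4.19, 3.74 and 3.28 FPKM in the MMK-1 libraries, a 1.49-fold fall (adjusted p = 4.1e-04). Zbp1 had 14, 7 and 14 fragments in the controls against 4, 0 and 0 after MMK-1, an 8.45-fold fall with an interval of 3.02 to 32.7 (adjusted p = 0.0054, limma-voom). Zbp1 entered that test through its controls alone, which limits what this p-value can show. In all 3 genes each control library was above each MMK-1 library, as in 23% of genes with at least 10 fragments, and Ifih1 kept most of its level.

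The antiviral effectors split by their control level. Those well expressed in controls moved little: Eif2ak2, which encodes the kinase PKR that stops translation when it binds double-stranded RNA, was at 10.02, 10.15 and 9.62 FPKM in the controls against 7.48, 7.08 and 7.97 FPKM in the MMK-1 libraries (1.32-fold, adjusted p = 2.7e-04). Samd9l, which restricts viral translation, was at 15.2, 14.7 and 13.7 FPKM in the controls against 10.3, 11.2 and 9.51 FPKM in the MMK-1 libraries (1.41-fold, adjusted p = 2.1e-04). Both genes stayed well expressed, with each control library above each MMK-1 library, as in 23% of genes with at least 10 fragments. Bst2, which encodes tetherin, a membrane protein that holds budding virus on the cell, was at 18.3, 17.6 and 18.3 FPKM in the controls against 19.4, 18.8 and 20.2 FPKM in the MMK-1 libraries. The difference in Bst2 did not pass (log2 fold change 0.10, standard error 0.04, adjusted p = 0.068), and its sign turned under upper-quartile scaling (-0.050). The effectors that were low in controls fell much further. Rsad2, which encodes viperin, an enzyme that makes a chain-terminating nucleotide, had 69, 55 and 60 fragments in the controls against 2, 2 and 8 after MMK-1, a 14.8-fold fall (8.28 to 29.2 by counting; adjusted p = 4.0e-05, limma-voom). Cmpk2, a nucleotide kinase gene next to Rsad2 on chromosome 12, had 141, 136 and 145 fragments in the controls against 15, 20 and 17 after MMK-1, a 7.84-fold fall (adjusted p = 1.7e-06, limma-voom). Trim30a, of the TRIM family, had 117, 103 and 76 fragments in the controls against 1, 1 and 0 after MMK-1, a ratio of MMK-1 to control of 0.00699 with a counting interval of 0.000843 to 0.0255 (adjusted p = 1.9e-05, limma-voom). Trim30a entered that test through its controls alone, which limits what this p-value can show. Both low neighbours on chromosome 12 and Trim30a had each control library above each MMK-1 library, the pattern of 23% of genes with at least 10 fragments.

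**Figure D3:**
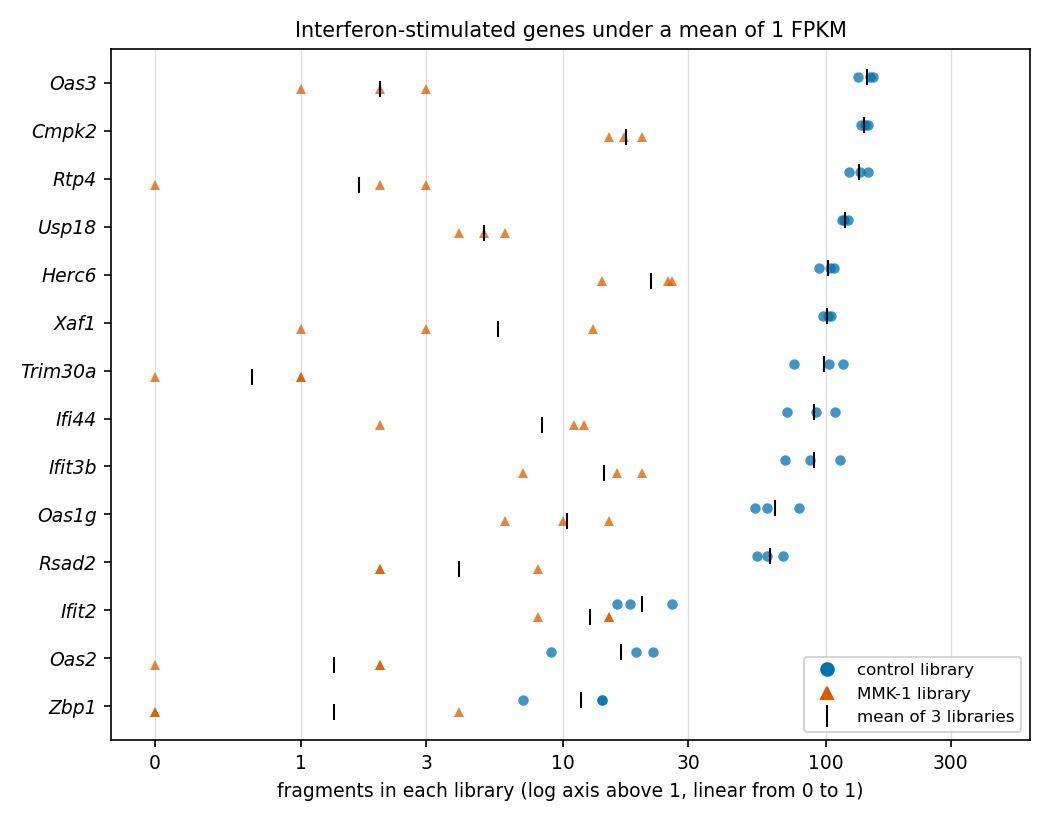
Number of fragments in each of 3 control and 3 MMK-1 libraries for the 14 members with a mean under 1 FPKM, on an axis that is linear from 0 to 1 and logarithmic above; vertical lines are group means. The Oas3 points lie between 133 and 151 in controls and between 1 and 3 with MMK-1, while those of Ifit2 lie close together, at 16 to 26 and 8 to 15.

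PARP9 and DTX3L form a complex of an ADP-ribosyltransferase family protein with a ubiquitin ligase, and PARP12 and PARP14 attach single ADP-ribose units to proteins. All 4 genes were lower in both tests, as were 24.7% of all genes in the test on FPKM and 20.5% in that on fragments. Parp14 was at 3.68, 4.05 and 3.42 FPKM in the controls against 0.852, 0.895 and 1.02 FPKM in the MMK-1 libraries, a 4.02-fold fall (adjusted p = 1.4e-08, limma-voom). Parp12 was at 6.73, 6.37 and 6.52 FPKM in the controls against 1.91, 1.84 and 1.75 FPKM in the MMK-1 libraries, a 3.57-fold fall (adjusted p = 6.8e-08). The partners Parp9 and Dtx3l fell less. Parp9 was at 14.8, 14.0 and 14.1 FPKM in the controls against 7.25, 7.57 and 7.09 FPKM in the MMK-1 libraries, a 1.96-fold fall with an interval of 1.87 to 2.05 (adjusted p = 5.7e-07). Dtx3l was at 8.12, 8.02 and 8.19 FPKM in the controls against 4.59, 4.64 and 4.58 FPKM in the MMK-1 libraries, a 1.76-fold fall with an interval of 1.68 to 1.85 (adjusted p = 1.4e-06). Their 5′ ends overlap on opposite strands of chromosome 16, from 35938470 to 35939151, and because it is not given whether counting used strand, fragments in that stretch cannot be told apart.

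The remaining 7 members were all lower in the fragment test, as were 20.5% of all genes in it, and their folds ran from 1.13 to 77.9. Rtp4, a chaperone of G protein-coupled receptors, had 145, 135 and 123 fragments in the controls against 3, 0 and 2 after MMK-1, a 77.9-fold fall (33.1 to 241 by counting; adjusted p = 6.8e-06, limma-voom). Rtp4 entered that test through its controls alone, which limits what this p-value can show. Xaf1, which encodes a partner of the apoptosis inhibitor XIAP, had 105, 102 and 98 fragments in the controls against 1, 13 and 3 after MMK-1, a 17.3-fold fall (adjusted p = 2.9e-05, limma-voom). Ifi44 had 71, 92 and 109 fragments in the controls against 11, 2 and 12 after MMK-1, a 10.5-fold fall (adjusted p = 1.1e-04, limma-voom). In these genes the MMK-1 libraries differed more among themselves, relative to their level, than the controls did. Counting error is relatively larger at so few fragments, and its part in this spread was not tested. Each MMK-1 library still lay below each control library, the pattern of 23% of genes with at least 10 fragments. Ifi27, which encodes a small mitochondrial protein, was at 12.0, 11.5 and 12.7 FPKM in the controls against 1.36, 1.56 and 2.42 FPKM in the MMK-1 libraries, a 6.75-fold fall (adjusted p = 6.9e-07). Its relative Ifi27l2b was at 225, 207 and 213 FPKM in the controls against 123, 106 and 111 FPKM in the MMK-1 libraries, a 1.89-fold fall (adjusted p = 1.8e-06). Ifi27l2b was the highest member in controls and with Lgals3bp held the upper end of the level range throughout. Ifi35 was at 34.2, 36.8 and 33.1 FPKM in the controls against 21.4, 21.4 and 22.5 FPKM in the MMK-1 libraries, a 1.59-fold fall (adjusted p = 5.0e-06). Lgals3bp, which encodes a secreted glycoprotein that binds galectin-3, was at 127, 126 and 127 FPKM in the controls against 111, 111 and 114 FPKM in the MMK-1 libraries, a 1.13-fold fall (adjusted p = 0.0018). Ifi27 and Ifi27l2b are paralogs on chromosome 12, and the split of reads between them is uncertain.

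Over the 37 members, 24 were at least 2-fold lower by the plain ratio, 19 at least 4-fold, 11 at least 10-fold and 4 more than 50-fold, the last being Trim30a, Rtp4, Oas3 and Ifit3. In limma-voom 7.2% of all genes were at least 2-fold lower at an unadjusted p of at most 0.05. Shares of all genes by the plain ratio were not computed, so how unusual these counts are was not tested. The median fold was 4.02. Members that were lower in controls tended to fall further, with a Spearman's rho of 0.61 between control FPKM and the log2 ratio of MMK-1 to control over 37 genes that share the same libraries and whose low values carry the largest counting error. The control level is also the divisor of that ratio. Trim30a, Oas3, Oas2 and Zbp1, which entered the fragment test through their controls alone, are part of this rho and of the group under 1 FPKM. The 10 members at 10 FPKM or more in controls had a median fold of 1.61 (0.871 to 6.75), the 17 between 1 and 10 FPKM one of 3.68 (1.17 to 77.9), and the 10 under 1 FPKM one of 11.3 (1.53 to 143). Exceptions stood at both ends, since Ifi27 and Irf7 fell by more than 4-fold from over 10 FPKM and Ifit2, at 0.122 FPKM, had a fold of 1.53 whose interval, 1.00 to 2.35, was too wide to place it. Members with a response element core in the printed window had a median fold of 6.02 (0.928 to 143, 13 genes), and the 15 with a window but no core one of 2.27 (0.871 to 17.3). The ranges overlapped widely, with Oasl2 14.4-fold lower and no core in its window, and Bst2 not lower with a core. The gamma-activated site core, TTC, 3 bases, GAA, was in 6 of the 28 members' windows (21.4%) and in 9.55% of all genes' windows.

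**Figure D4:**
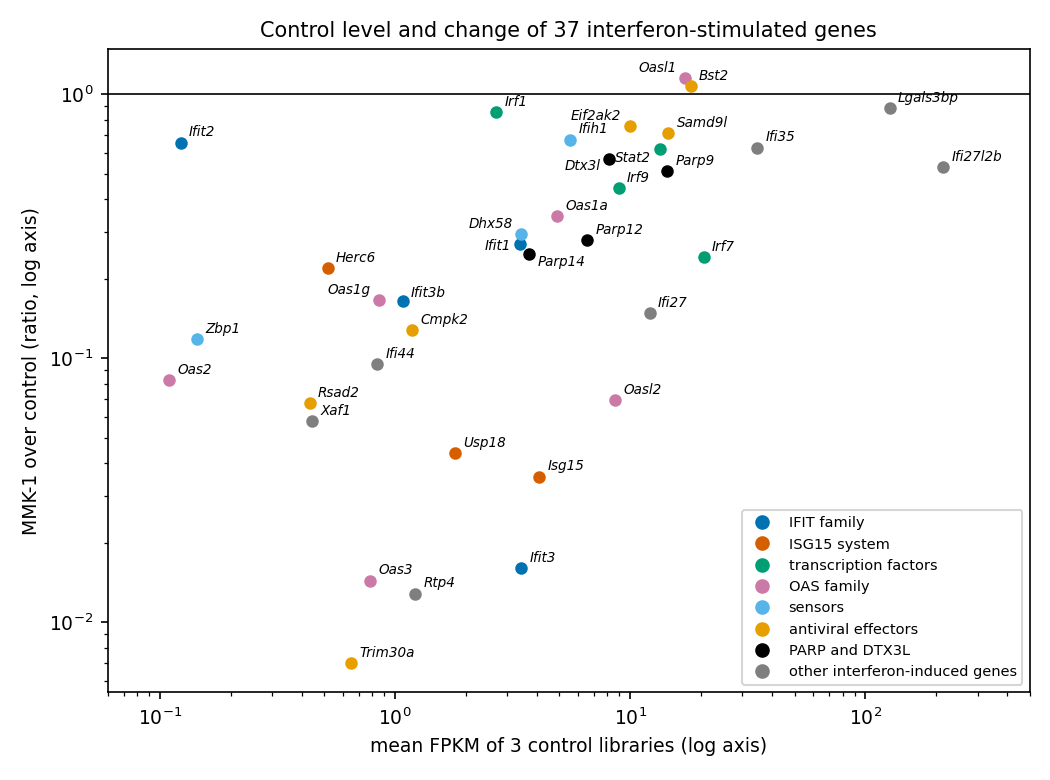
Mean FPKM of the 3 control libraries (x axis, log) against the ratio of MMK-1 to control (y axis, log) for 37 members, coloured by role. Members at 10 FPKM or more had a median fold of 1.61, with Lgals3bp, Bst2 and Oasl1 near the line at 1 (Bst2 on either side, depending on scaling) and Ifi27 and Irf7 well below it, and members under 1 FPKM had a median fold of 11.3.

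Genes upstream of the members were measured as well. Of 11 interferon genes looked for, 3 were in the table. Ifne and Ifnz had 0 fragments in all 6 libraries, which allows up to 3 fragments in each, and Ifng had 1 fragment in 1 control library, so a difference in these interferon transcripts was not detectable at this depth. Of the 6 receptor chains and kinases, 4 were lower and 1 was higher in the limma test on FPKM, in which 24.7% of all genes tested were lower and 48.5% higher. Both chains of the type III receptor were lower, Il10rb from 40.5 ± 0.440 to 24.2 ± 0.849 FPKM and Ifnlr1 from 5.18 ± 0.195 to 4.31 ± 0.112 FPKM (SD, n = 3 per group; adjusted p = 9.5e-07 and 0.0034). The ratio of MMK-1 to control was 0.599 for Il10rb and 0.831 for Ifnlr1. In both genes each control library was above each MMK-1 library, as in 23% of genes with at least 10 fragments. Of the type I receptor, Ifnar2 fell from 3.39 ± 0.0873 to 1.74 ± 0.0872 FPKM (adjusted p = 6.5e-06), and Ifnar1, at 9.32 ± 0.291 and 8.51 ± 0.546 FPKM, did not pass (adjusted p = 0.076). Tyk2 was lower (ratio 0.715, adjusted p = 8.6e-05) and Jak1 higher (ratio 1.18, adjusted p = 8.2e-04).

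Apart from Usp18, a member described above that fell 22.9-fold, 5 feedback inhibitors of the pathway were listed, of which none of 4 tested was lower and 3 were higher, Pias1, Ptpn2 and Trim24, with ratios of 1.26, 1.25 and 1.61, while Socs3 did not pass (ratio 1.08, adjusted p = 0.17). In the same test 48.5% of all genes were higher, and the median gene stood 0.13 above its control level on the log2 scale. Socs1, the best known of them, was under the filter with 6, 4 and 10 fragments in the controls against 18, 12 and 9 after MMK-1, and its groups overlapped (adjusted p = 0.12, limma-voom). Of 8 tested genes of nucleic acid sensing, 6 were lower, against 24.7% of all genes tested, and 2 were higher. Rigi, the sensor of short double-stranded RNA, fell from 6.59, 6.80 and 6.66 FPKM to 2.28, 2.77 and 2.85 FPKM (ratio 0.394, adjusted p = 1.5e-06). Mavs, the mitochondrial adaptor of Rigi and Ifih1, fell to a ratio of 0.718, and Cgas, a sensor of cytosolic DNA, and Irf3 rose to ratios of 1.64 and 1.16. Of 9 tested genes of MHC class I and its regulators, 8 were lower (24.7% of all genes tested), among them B2m at a ratio of 0.542 and Tap1 at 0.409. Nlrc5, the transactivator of these genes, had 31, 33 and 9 fragments in controls and 0 in each MMK-1 library, so that it reached the test on fragments through its controls alone. Of the guanylate-binding and immunity-related GTPases, which interferon gamma induces strongly, 13 of 17 were in the table, 8 could be tested on fragments and 6 of those were lower, beside 20.5% of all genes in that test, including Igtp with 105, 126 and 139 fragments in the controls against 7, 16 and 20 after MMK-1. Of the 6, Gbp6, Gbp7 and Gm12250 had under 10 fragments in the MMK-1 libraries together and entered the test through their controls, while Igtp, Irgm1 and Irgm2 did not.

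**Figure D5:**
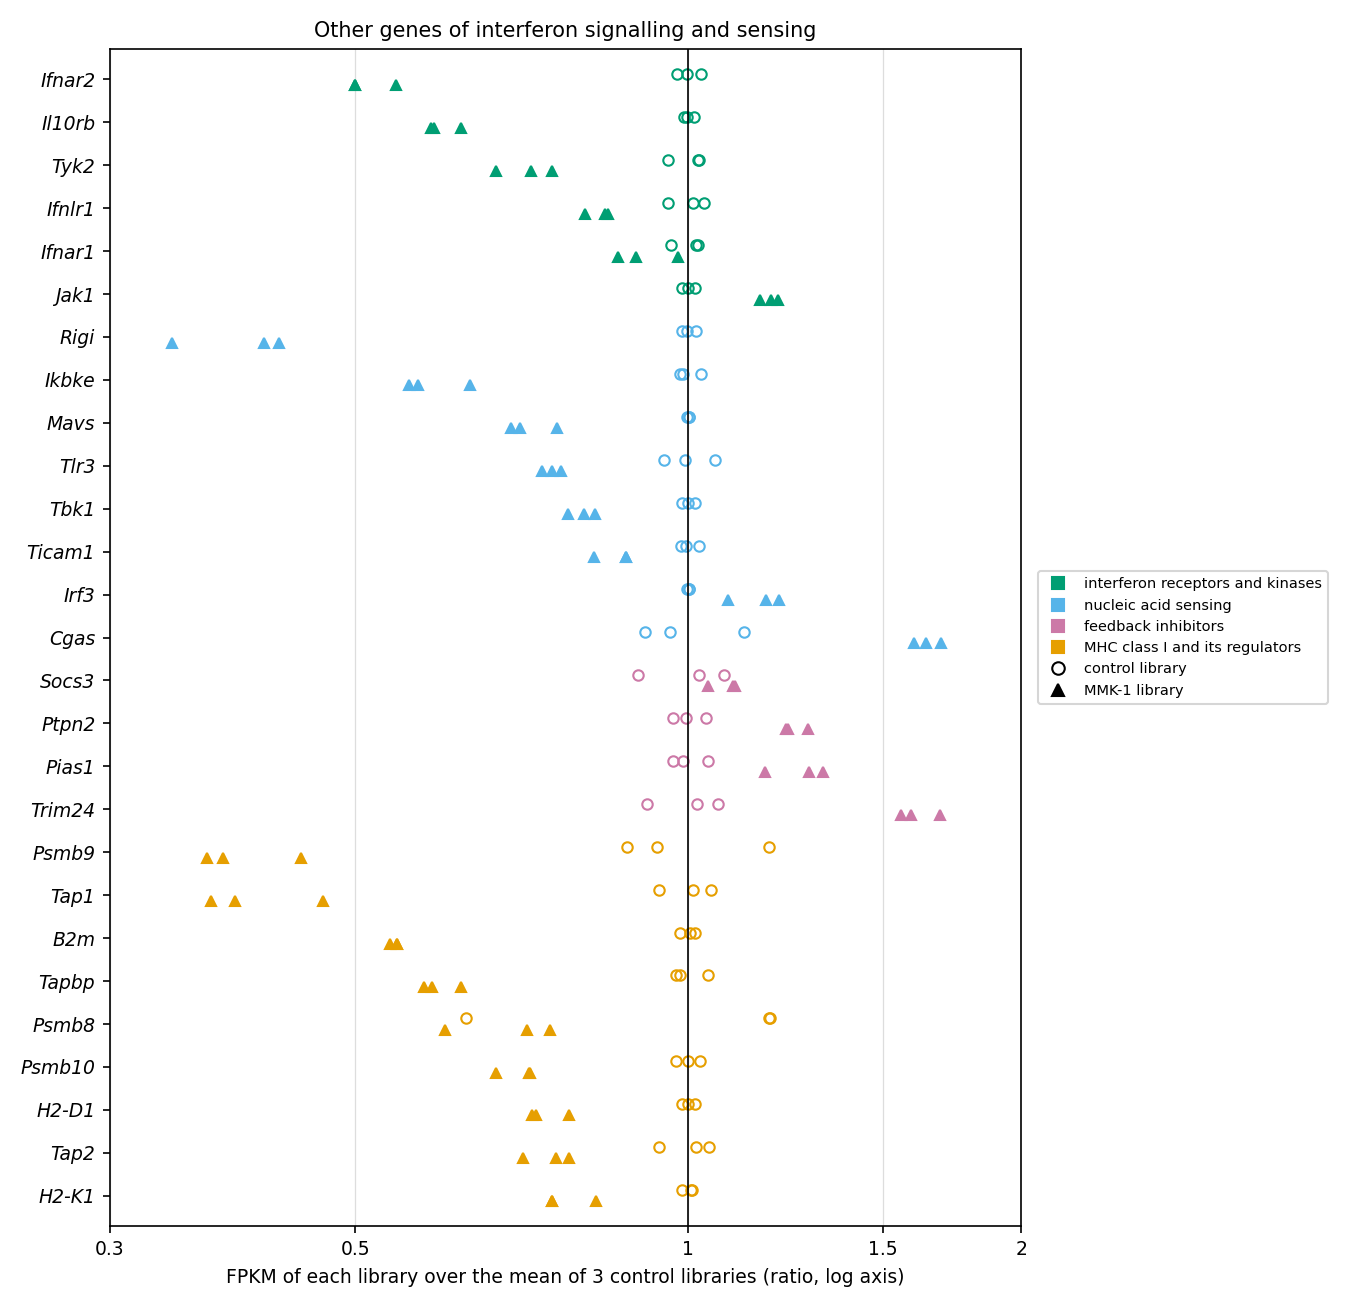
FPKM of each library over the mean of the 3 control libraries, on a log axis, for other genes of interferon signalling, nucleic acid sensing, feedback inhibition and MHC class I with a mean of at least 1 FPKM. MMK-1 libraries (triangles) lie below controls (circles) for Rigi, Tap1 and Psmb9, with ratios near 0.4, and above them for Jak1, Irf3, Cgas, Ptpn2, Pias1 and Trim24.

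Cell type markers also differed between the groups, some lists lower and others higher with MMK-1, in a test in which 24.7% of all genes were lower and 48.5% higher. In bulk RNA, fewer cells of a type and less RNA per cell cannot be told apart. By the limma test on FPKM, 8 of 10 enterocyte markers were lower and 1 was higher, and their summed level fell from between 13464 and 13668 FPKM in controls to between 9814 and 10587 FPKM with MMK-1. All 5 stem cell markers were higher, with sums of 44.3 to 44.8 FPKM in controls and 306 to 320 FPKM with MMK-1, as were all 5 Paneth cell markers, with sums of 358 to 407 and 1009 to 1115 FPKM. Of 5 goblet cell markers 4 were higher and 1 was lower, and of 5 enteroendocrine markers 4 were higher, while the 4 tuft cell markers were under the filter and 2 of them were higher in limma-voom. The part of this shift in the members' levels was not tested. Single enterocyte markers had ratios of MMK-1 to control from 0.138 for Anpep to 1.13 for Fabp1. Of 15 leukocyte markers 10 were in the table, 6 of them under 0.1 FPKM in controls, and none was at 0 in all 6 libraries. Their sum was 6.21 to 6.74 FPKM in controls and 2.47 to 3.33 FPKM with MMK-1, and it consisted mostly of Cd68 and Itgam. The shared leukocyte gene Ptprc had 1, 3 and 1 fragments in the controls against 0, 1 and 1 after MMK-1, Adgre1 had 0 in controls, and Csf1r had 20, 23 and 23 in controls and 0, 1 and 2 with MMK-1. The part of leukocyte RNA in the members' change was not tested.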

How the data were processed

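The authors deposited a table of FPKM values for 6 RNA-seq libraries of mouse small intestinal organoids, 3 given vehicle and 3 given MMK-1, with gene annotation columns, and the deposited FPKM values were used without further scaling. The submitters' processing notes name mm10, HISAT2, HTSeq, R 3.2.0 and DESeq2 without their roles, and whether counting used strand is not given in the sources used here. Whole numbers of fragments and library totals were recovered from the FPKM values for 100% of the 20676 genes with a value, within 2e-05 of a whole number, and the totals, 35512739 to 37537463, set the precision of low genes. Intervals of ratios (95%, exact binomial) cover counting error only, and a count of 0 allows up to 3 fragments.

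Genes averaging 1 FPKM or more were tested with limma 3.58.1 (empirical Bayes with a trend) in R 4.3.3 on log2(FPKM + 1) without a block, with Benjamini-Hochberg adjustment over all of them. Calls were made at an adjusted p of at most 0.05, and at a fold change of at least 2 with an unadjusted p of at most 0.05. An adjusted p with no other test named comes from this fit. The alternatives were limma-voom on fragments (genes with at least 10), upper-quartile and median-of-ratios scaling, no filter, a pseudocount of 0.1, a block for the replicate number and leaving out each library. Fragments, permutation tests and plots were made with Python 3.11.15 (scipy 1.17.1, numpy 2.4.6, matplotlib 3.10.9, pandas 2.3.3), and the fits were tested on simulated data. Single values were tested by exact two-sided permutation.

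Every one of the 39 members was to be named, and other genes of the pathway were taken from fixed lists of interferon genes, receptors, inhibitors, sensors, GTPases, MHC class I genes and cell type markers. The members and lists were chosen with earlier results of these data known. Of the pathway lists, 1 gene was left out of every list count and is not reported here, and the others are given by counts with values for some. Coordinates are from GENCODE vM21 on GRCm38, which is mm10, and promoter sequences from RefSeq on GRCm38.p6. Deviations of same-numbered libraries from their group means correlated at 0.03, -0.04 and 0.03, so the numbers were not read as pairs.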

Additional observations from a re-analysis of the deposited data

How the results depend on the processing

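Of 276 results of single members under 12 alternatives, 265 kept their direction and their side of the threshold. With libraries scaled by upper quartile or by median of ratios, no member was higher at an adjusted p of at most 0.05 (0 instead of 1 in limma's test), the median log2 fold change of the members was -1.07 under both, and Bst2 turned from 0.10 to -0.050 and -0.050. Those scalings moved the median over all genes from 0.13 to -0.0045 and -0.0043 and the calls over all genes from 2606 lower and 5118 higher to 3906 and 3659 under upper-quartile scaling. With every gene above 0 in the test, 33 of 37 members were lower and the median was -0.76, beside 3152 lower of all 20676 genes and a median of 0.010 over them. On fragments with limma-voom, 33 of 37 were lower, 24 at least 2-fold, with a median of -2.01, and the calls over all genes numbered 3262 lower and 6213 higher, with 1146 at least 2-fold lower against 385. More members enter these tests than the 23 of the filtered one. Leaving out each library in turn gave 20 to 22 members lower, 1 higher in each case, 11 to 12 at least 2-fold lower, and medians from -1.01 to -0.88. Over all genes these fits called 2347 to 2960 lower, of 10573 and 10515 tested, and 366 to 399 at least 2-fold lower. The samples share only a replicate number. With a block for it, 20 members were lower, 1 higher and 11 at least 2-fold lower, with a median of -0.92, and Irf1 lost its call (adjusted p = 0.081). Of all 10551 genes in that fit, 2543 were lower, 5024 higher and 385 at least 2-fold lower. Irf1 and, under the 2 scalings, Oasl1 made up the 9 results that lost their call. Depth limits members with under 10 fragments in the MMK-1 libraries, whose folds have wide counting intervals.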
